A study of Mus musculus with 9 samples.

Results

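The genes described here were 10 effectors and targets of the Hippo pathway, namely *Yap1*, *Wwtr1*, *Tead1*, *Lats2*, *Ctgf*, *Cyr61*, *Ankrd1*, *Amotl2*, *Axl* and *Nuak2*. They were taken by exact symbol from the per-sample expression tables, and each had 1 row among 23332 gene rows. RNA had been sequenced from FVB MOE cells, a monoclonal line of murine oviductal epithelial cells described as secretory, so that every sample came from a single clone. All cells were deprived of hormone for 48 h and then received 0.1% DMSO alone as the solvent control, 1 nM E2 (17-beta-estradiol) or 100 nM 4OHT (4-hydroxytamoxifen, the active metabolite of tamoxifen) for 24 h. The E2 and 4OHT samples are taken to have held the same 0.1% DMSO. Each condition had 3 samples, numbered 1 to 3 in the labels. No source used here says whether these were separate cultures, so that p-values measure the spread between these samples, which may be technical. Expression is given as FPKM, a count of fragments divided by transcript length and by the library's mapped fragments, so that levels of different genes can be set side by side per length.

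In the Hippo pathway the kinases Mst1 and Mst2, encoded by *Stk4* and *Stk3*, activate Lats1 and Lats2, which phosphorylate the co-activators YAP (*Yap1*) and TAZ (*Wwtr1*) and keep them out of the nucleus. Unphosphorylated YAP and TAZ enter the nucleus and bind TEAD factors such as Tead1, and the complex raises the transcription of targets that include *Ctgf*, *Cyr61* and *Ankrd1*. In epithelia the pathway is known to respond to cell density, cell shape and actin tension. The phosphorylation and location of the proteins were not measured here, and an RNA level does not report them.

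Promoters are shown for the members with an entry that were called in a comparison below, and for *Amotl2*, which was not called, as another YAP target, because TEAD factors act by binding DNA. RefSeq promoter sequences of GRCm38.p6, the assembly that mm10 names, were matched for 7 of the 10 members (*Cyr61* under its current symbol *Ccn1*), and *Ctgf*, *Tead1* and *Nuak2* had no entry. Each line gives the 250 bases before the annotated start, 5′ to 3′ on the gene's own strand. The positions are chr3:145649986-145650235 for *Cyr61*, chr19:36119845-36120094 for *Ankrd1*, chr9:102717554-102717803 for *Amotl2*, chr3:57575911-57576160 for the more upstream of 2 *Wwtr1* starts, and chr7:25788734-25788983 for *Axl*. *Amotl2* is on the plus strand and the others are on the minus strand. Capitals mark the TEAD core GGAATG, searched on both strands so that it also appears as CATTCC, and, in *Amotl2*, the estrogen response element half-site AGGTCA, which appears there on the other strand.
Cyr61: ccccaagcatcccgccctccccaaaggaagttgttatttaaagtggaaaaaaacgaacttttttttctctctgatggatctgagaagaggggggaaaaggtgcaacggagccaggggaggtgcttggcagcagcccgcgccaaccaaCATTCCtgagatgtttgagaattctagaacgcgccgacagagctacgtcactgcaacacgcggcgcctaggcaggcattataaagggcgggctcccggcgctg
Ankrd1: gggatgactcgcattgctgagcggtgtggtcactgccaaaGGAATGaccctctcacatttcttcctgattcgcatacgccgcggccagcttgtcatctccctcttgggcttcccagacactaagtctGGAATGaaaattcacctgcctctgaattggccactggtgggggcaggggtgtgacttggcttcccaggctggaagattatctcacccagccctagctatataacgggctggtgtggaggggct
Amotl2: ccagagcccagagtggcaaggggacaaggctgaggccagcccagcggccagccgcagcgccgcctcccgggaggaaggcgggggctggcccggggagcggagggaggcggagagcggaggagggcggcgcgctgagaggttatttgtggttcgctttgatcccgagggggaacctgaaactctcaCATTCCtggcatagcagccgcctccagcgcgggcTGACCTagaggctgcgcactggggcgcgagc
Wwtr1: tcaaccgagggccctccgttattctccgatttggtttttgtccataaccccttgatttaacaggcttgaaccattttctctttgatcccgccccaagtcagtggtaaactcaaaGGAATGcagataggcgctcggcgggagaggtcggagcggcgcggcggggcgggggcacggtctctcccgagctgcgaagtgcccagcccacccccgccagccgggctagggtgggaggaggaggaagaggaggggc
Axl: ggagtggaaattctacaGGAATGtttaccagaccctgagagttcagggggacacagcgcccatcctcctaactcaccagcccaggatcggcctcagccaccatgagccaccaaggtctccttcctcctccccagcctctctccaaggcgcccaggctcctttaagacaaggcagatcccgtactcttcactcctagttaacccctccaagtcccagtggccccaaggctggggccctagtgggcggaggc

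The TEAD core stood in the window of 6 of the 7 members with an entry, in all but *Lats2*, against 12.6% of the 32817 RefSeq mouse promoter windows of this length. Both *Lats2* windows, chr14:57746124-57746373 and chr14:57734419-57734668, lie inside the gene's GENCODE span of 57689662 to 57758388 (minus strand). The windows of *Amotl2* and *Ankrd1* also lie inside the GENCODE spans. For these 3 genes the bases before the GENCODE start were not searched. *Ankrd1* held the TEAD core at 2 places, beginning 210 and 123 bases before the RefSeq start. In *Cyr61* it began 103 bases before the start, in *Amotl2* 65, in *Wwtr1* 136, in *Yap1* 141 and in *Axl* 233. The half-site AGGTCA was in the windows of *Amotl2* and of the more downstream *Wwtr1* start, against 14.0% of all windows. The AP-1 motif TGANTCA, searched on both strands, was in none of the 7, against 6.75% of all windows. These matches describe the letters of the windows and measure no binding. No overlap between motifs was found in the sequences shown.

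The libraries were alike in depth and content. The FPKM of a sample summed to 522517 to 588640, 11037 to 11175 rows were at 1 FPKM or more, and the relative depth, read from the step between low values, was 0.821 to 1.18 times that of DMSO replicate 1. The estrogen response genes *Pgr*, the progesterone receptor, and *Greb1* were higher with E2 than with DMSO in all 3 replicate pairs. *Pgr* went from 9.58 to 38.1 FPKM in replicate 1, from 1.36 to 21.1 in replicate 2 and from 1.16 to 15.9 in replicate 3, so that the replicate 1 samples stood apart in its starting level. Of the 6 epithelial markers, *Epcam* was at most 0.14 and *Cdh1* at most 0.42 FPKM in every sample, whereas the keratins *Krt7*, *Krt8*, *Krt18* and *Krt19* exceeded 100 FPKM. Of the 4 secretory oviduct markers, *Pax8* was between 105 and 149.6 FPKM and higher with E2 in all 3 pairs, as was *Esr1*, whereas *Ovgp1*, which encodes oviductin, was only 1.44 to 2.61 FPKM and lower with E2 in all 3. Of the 5 ciliated markers, *Foxj1* was between 8.95 and 15.9 FPKM and, like *Ccdc39*, lower with E2 in all 3 pairs, whereas *Rsph1* and *Dnah5* were higher in all 3. The summed epithelial markers were 1306 to 1449 FPKM with DMSO, 2171 to 2439 with E2 and 1330 to 1566 with 4OHT. The summed stromal markers, of which *Vim* and *Acta2* supplied nearly all, were 2577 to 3070, 3031 to 3408 and 2999 to 3328 FPKM. *Vim* and *Acta2* were higher with E2 than with DMSO in all 3 pairs, whereas *Twist2* was lower in all 3 and *Col1a1* was higher in 2 of 3. The summed secretory markers were 142 to 202 FPKM with DMSO, 159 to 208 with E2 and 139.5 to 198 with 4OHT. The ciliated sum was 19.1 to 23.8, 15.5 to 20.7 and 19.8 to 23.9 FPKM, and the smooth muscle sum, nearly all of it *Cnn1*, which was lower with E2 in all 3 pairs, was 14.6 to 36.8, 10.3 to 31.8 and 17.4 to 35.4. The summed immune markers reached at most 4.07 FPKM and the endothelial ones at most 1.40. The epithelial sum and single markers of other lists thus moved with E2, as did some members below, and their part in the members' differences was not tested. In a culture measured in bulk, fewer cells of a kind and less RNA per cell cannot be told apart.

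The members fell into separate ranges of expression. With DMSO the mean was 837 ± 362 FPKM for *Ctgf*, 671 ± 213 for *Cyr61* and 339 ± 63.4 for *Ankrd1* (SD, n = 3 for each). *Amotl2* followed at 167 ± 12.0 and *Axl* at 108 ± 16.6 FPKM. *Nuak2* was between 65.0 and 88.6 FPKM. The effectors were lower, with *Yap1* at 40.5 ± 0.98, *Wwtr1* at 36.8 ± 1.76 and *Tead1* at 36.5 ± 2.62 FPKM, and *Lats2* was lowest at 15.3 ± 0.63. In this order the DMSO samples of *Ctgf* overlapped those of *Cyr61* and the samples of *Wwtr1* overlapped those of *Tead1*, whereas those of all other neighbours did not overlap.

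**Figure D1:**
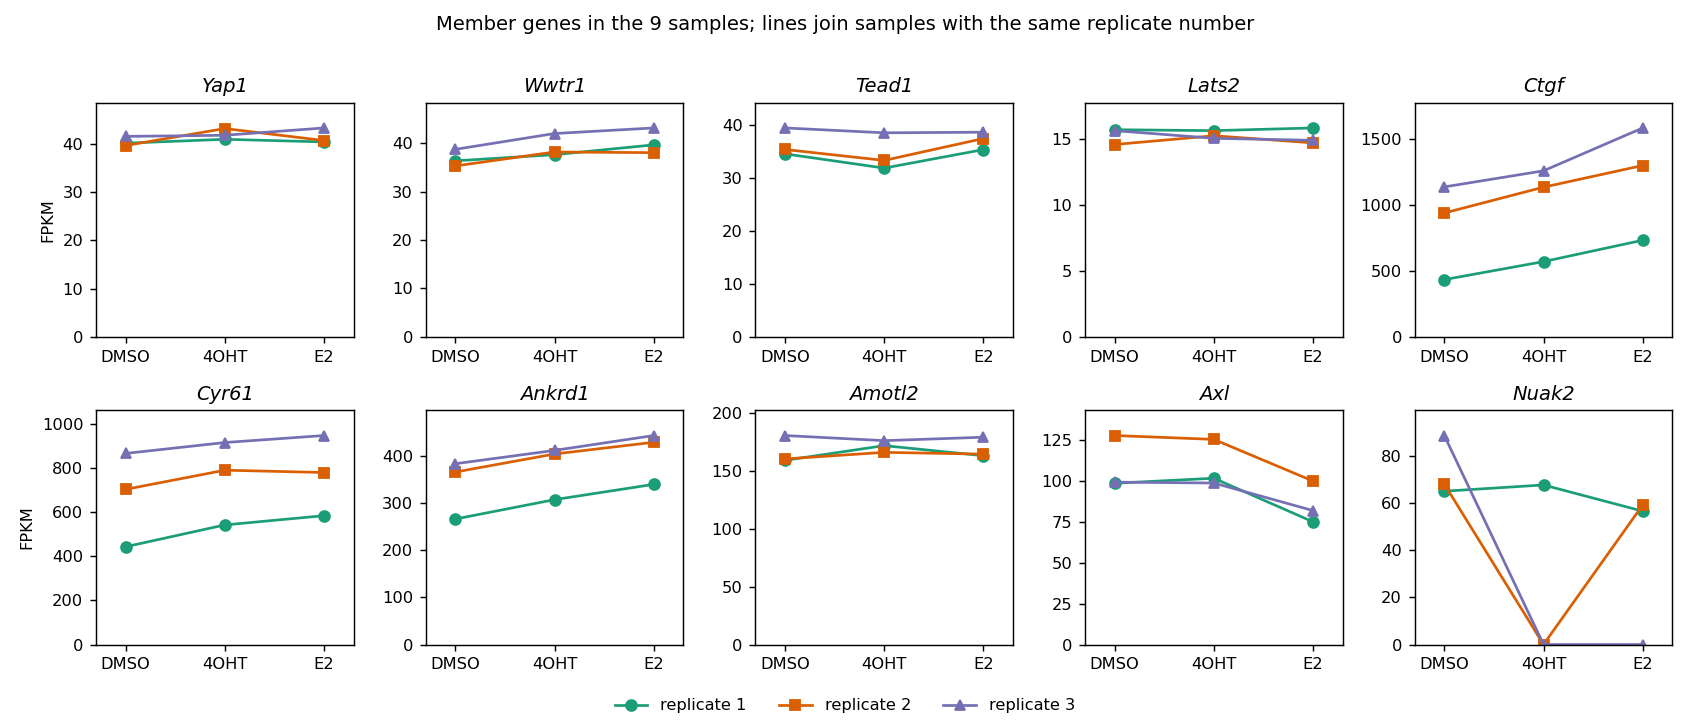
FPKM of the 10 members (vertical axes, each from 0) in DMSO, 4OHT and E2 samples, with a line for each replicate number. *Ctgf*, *Cyr61* and *Ankrd1* have replicate 1 below the other two in every condition, *Axl* is lower with E2 in each replicate, and *Nuak2* is listed at 0 in 3 samples.

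The differences between replicate numbers were larger than those between conditions. On the log2(FPKM + 1) scale, the range of the 3 replicate-number means exceeded the range of the 3 condition means in 9 of 9 members without an exact 0, where 66.7% of 11094 such genes did the same. For *Ctgf* the 2 ranges were 1.21 and 0.57, for *Cyr61* 0.81 and 0.22, and for *Ankrd1* 0.44 and 0.26. In these 3 classic YAP targets every replicate 1 sample was below every sample of replicates 2 and 3, a pattern shown by 10.2% of all such genes. *Ctgf* with DMSO was 2.62 times as high in replicate 3 as in replicate 1, and *Cyr61* was 1.95 times as high. *Axl* departed from this order, with replicate 2 above the others and ranges of 0.36 and 0.34. For *Yap1* the ranges were only 0.06 and 0.05.

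**Figure D2:**
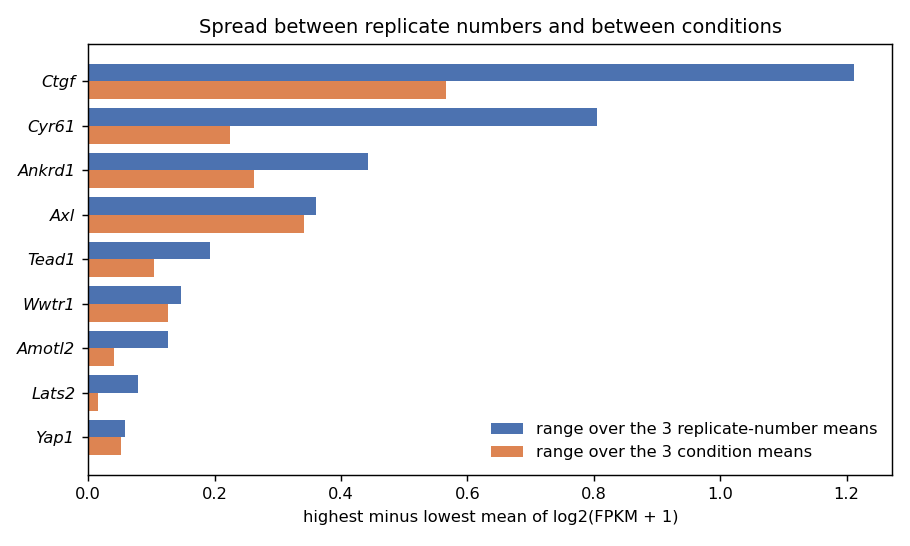
Range of the means of log2(FPKM + 1) over replicate numbers (blue bars) and over conditions (orange bars) for the 9 members without an exact 0. The blue bar is the longer one for each gene, from 1.21 against 0.57 for *Ctgf* to 0.06 against 0.05 for *Yap1*.

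Because of this spread, each comparison was fitted with limma in 2 ways, with no block and with a block for each replicate number. A gene was called at an adjusted p under 0.05. Departures from the condition mean were shared by equally numbered samples, with a correlation that averaged 0.69 and ran from 0.52 to 0.83 over 9 pairs of samples in the 11094 tested genes that had no exact 0. Over all 11339 tested genes, zeros included, the correlation averaged only 0.16 and ran from 0.053 to 0.293. It was above 0.1 in 5 of 9 pairs.

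E2 against DMSO asked whether estrogen altered the pathway's genes in these cells. Without the block none of the 10 members was called, where 0.512% of the 11339 genes tested were called. With the block 5 of 10 were called, where 15.0% of all genes were. *Ctgf*, *Ankrd1*, *Cyr61* and *Wwtr1* were the 4 called higher, where 10.4% of all genes were called higher, and *Axl* was the 1 called lower, where 4.63% were. With each sample scaled to its upper quartile, the blocked fit called 1049 genes higher and 939 lower, against 1177 and 525 as deposited, and it called the same number of members in each direction. In none of the 9 members without an exact 0 did the E2 and DMSO samples separate without regard to replicate number, where 15.3% of all such genes separated. Of these members 5 were higher with E2 in all 3 pairs and 1, *Axl*, was lower, where 28.4% and 24.5% of genes were.

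*Ctgf* encodes connective tissue growth factor, a secreted matrix-associated protein that is widely read as a YAP target. It was at 434, 939 and 1136 FPKM with DMSO in replicates 1, 2 and 3, and at 733, 1299 and 1583 with E2. E2 was higher than DMSO in each pair, by 1.69, 1.38 and 1.39 times, although the lowest E2 sample lay below 2 of the DMSO samples. The log2 fold change was 0.57, with a standard error of 0.46 and an adjusted p of 0.685 without the block, and of 0.064 and 0.00463 with it. The blocked call held in 9 of 9 fits without a single sample (adjusted p 0.0101 to 0.0277). It was lost without replicate 3 in every group, at an adjusted p of 0.0526.

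*Ankrd1*, which encodes an ankyrin-repeat protein first known from the heart, followed *Ctgf* closely. It was at 267, 367 and 385 FPKM with DMSO and at 341, 430.2 and 444 with E2, higher with E2 in each pair by 1.28, 1.17 and 1.16 times. The log2 fold change was 0.26, with a standard error of 0.18 and an adjusted p of 0.641 without the block, and of 0.035 and 0.00728 with it. The call held in 9 of 9 blocked fits without a single sample and in none of the 3 without a replicate number, where the adjusted p was 0.0653 to 0.0793.

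*Cyr61* encodes a secreted protein of the same family as *Ctgf*. It was at 443, 703 and 866 FPKM with DMSO and at 584, 779.5 and 947 with E2. The ratio was 1.32 in replicate 1 and 1.11 and 1.09 in replicates 2 and 3. The log2 fold change of 0.22 had an adjusted p of 0.802 without the block and 0.0495 with it, just under the threshold. That call was lost in each of the 9 blocked fits without a single sample, with an adjusted p from 0.0669 to 0.129, and without replicate 1 in every group the log2 fold change was 0.14.

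*Axl*, a receptor tyrosine kinase for the ligand Gas6, was the member called lower. It was at 98.4, 128 and 99.1 FPKM with DMSO and at 74.9, 99.8 and 81.7 with E2, so that E2 was lower in each pair, at 0.76, 0.78 and 0.82 of the DMSO level. The groups overlapped only because the E2 sample of replicate 2 lay just above the DMSO samples of replicates 1 and 3. The log2 fold change was -0.34, with a standard error of 0.15 and an adjusted p of 0.465 without the block, and of 0.037 and 0.00416 with it. The call held in 9 of 9 blocked fits without a single sample. Without a replicate number it held only where replicate 1 was left out, at an adjusted p of 0.0409, and was lost without replicate 2 (0.0609) and without replicate 3 (0.0505).

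Of the co-activators, *Wwtr1*, which encodes TAZ, was at 36.3, 35.3 and 38.7 FPKM with DMSO and at 39.6, 38.0 and 43.1 with E2. It was higher with E2 in each pair, by 1.09, 1.08 and 1.11 times. The log2 fold change of 0.13 had an adjusted p of 0.555 without the block and 0.0343 with it, and the blocked call held in 1 of 9 fits without a single sample, the one without E2 replicate 2. *Yap1* was at 40.2, 39.7 and 41.6 FPKM with DMSO and at 40.4, 40.7 and 43.3 with E2. Its log2 fold change was 0.03, with a 95% interval from -0.05 to 0.12 in the blocked fit and from -0.07 to 0.14 without the block, and was not called.

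The remaining members gave small differences. *Tead1*, the DNA-binding partner of YAP and TAZ, was at 34.6, 35.4 and 39.5 FPKM with DMSO and at 35.4, 37.5 and 38.7 with E2, a log2 fold change of 0.03 with a blocked interval from -0.06 to 0.12. *Lats2*, a kinase that restrains YAP and is itself a YAP target, lay between 14.6 and 15.9 FPKM in all 9 samples, with a log2 fold change of -0.01 and a blocked interval from -0.09 to 0.07. *Amotl2*, an angiomotin that binds YAP at cell junctions, was at 159, 160.5 and 181 FPKM with DMSO and at 163, 165 and 179 with E2, a log2 fold change of 0.02 with a blocked interval from -0.06 to 0.10. None of the 3 was called in either fit. The blocked intervals rest on the pairing of equally numbered samples. Without the block the intervals were wider, from -0.16 to 0.22 for *Tead1*, -0.13 to 0.10 for *Lats2* and -0.13 to 0.17 for *Amotl2*.

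**Figure D3:**
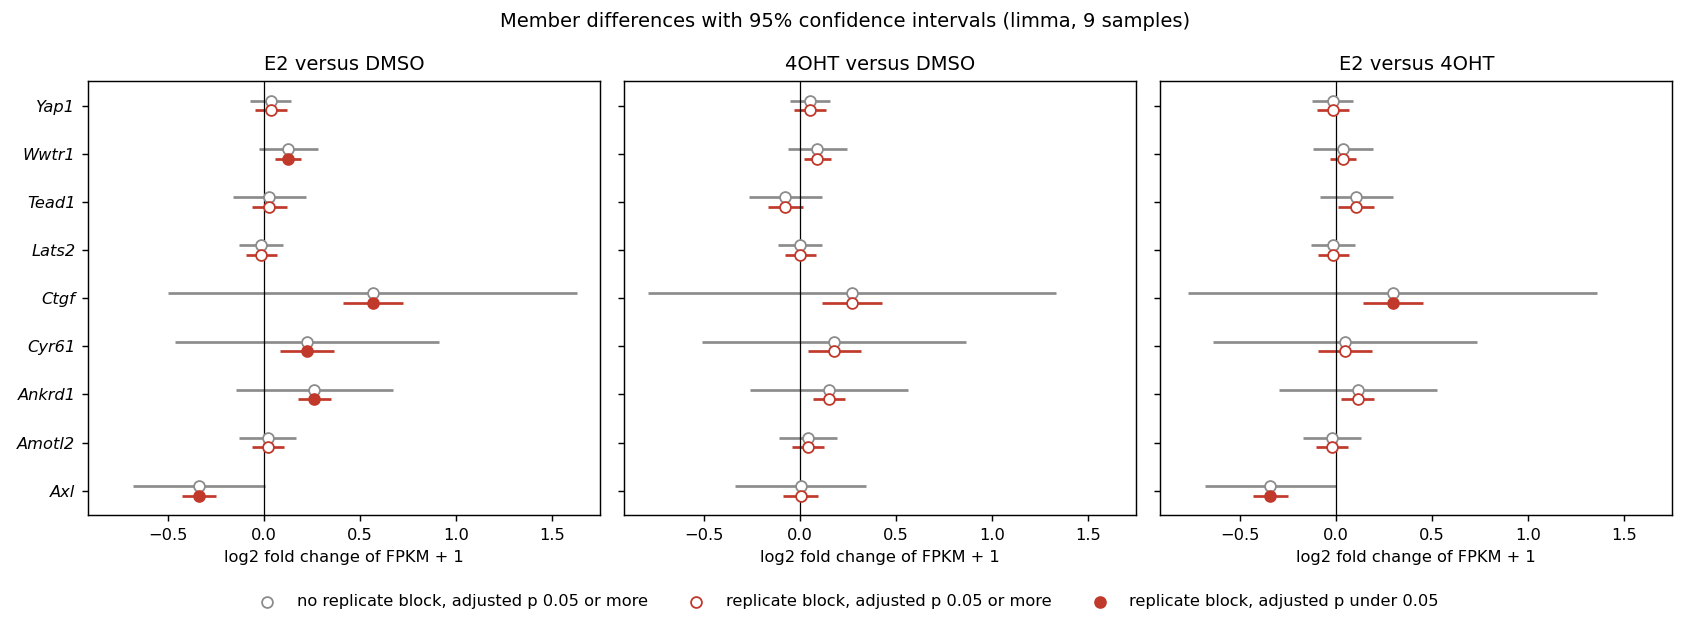
Log2 fold change of FPKM + 1 (horizontal axis) with its 95% confidence interval for the 9 members without an exact 0, in each comparison, without (grey) and with (red) the replicate block, where filled points are called at an adjusted p under 0.05. For *Ctgf* with E2 the interval narrows from -0.50 to 1.63 without the block to 0.41 to 0.72 with it.

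*Nuak2*, a kinase related to AMPK and a YAP target, was listed at exactly 0 in 3 samples. With DMSO it was at 65.0, 68.0 and 88.6 FPKM. With E2 it was at 56.5 and 59.1 FPKM in replicates 1 and 2 and at 0 in replicate 3, and with 4OHT it was at 67.6 in replicate 1 and at 0 in replicates 2 and 3. Such zeros were not particular to it, since 266 genes with a median of at least 5 FPKM among their nonzero samples were at 0 in some sample, 80 to 109 of them in each library. An exact 0 in a table of this kind can be a failed estimate, so that the fitted changes of *Nuak2* with the zeros kept are not described as changes in level. Between samples with a value, E2 was at 0.87 of DMSO in both pairs. With the zeros taken as missing the E2 log2 fold change was -0.33 without the block (adjusted p 0.491) and -0.20 with it (adjusted p 0.0375), where the latter rests on 2 pairs. Against 4OHT the same treatment of zeros gave a log2 fold change of -0.25 with the block, in which 4OHT enters with a single sample. With the zeros kept as values it was not called in either fit.

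4OHT against DMSO asked whether the tamoxifen metabolite acted on these genes by itself. None of the 10 members was called without or with the block, where 0% of all genes were called in both fits. Before adjustment 313 genes were under 0.05 without the block and 1480 with it, and *Ctgf*, *Ankrd1*, *Wwtr1* and *Cyr61* were among the latter, as was *Nuak2*, whose value rests on zeros. *Ctgf* was at 571, 1134 and 1258 FPKM with 4OHT, above DMSO in each pair by 1.31, 1.21 and 1.11 times, and its log2 fold change of 0.27 had an adjusted p of 0.368 with the block. *Ankrd1* was at 308, 405 and 413 FPKM, with a log2 fold change of 0.15 and an adjusted p of 0.350 with the block. *Cyr61* was at 542, 790.1 and 915 FPKM, with a log2 fold change of 0.18 and an adjusted p of 0.376. These 3 genes, *Wwtr1* and *Yap1* were higher in all 3 pairs, where 30.5% of genes were, and *Tead1* was lower in all 3, at 31.9, 33.3 and 38.5 FPKM, where 15.7% were. *Axl* was at 101, 125 and 98.6 FPKM, with a log2 fold change of 0.00. Its 95% interval was from -0.09 to 0.09 with the block and from -0.34 to 0.35 without it. In none of the 9 members without a 0 did the 4OHT and DMSO samples separate, where 7.88% of genes did. These values share the DMSO samples with the E2 comparison.

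E2 against 4OHT set the ligands side by side at their own doses. The doses of 1 nM and 100 nM differ, so that the comparison is of these treatments and not of the compounds at equal dose. No member was called without the block, where 0.159% of genes were called. With the block 2 of 10 members were called, where 16.2% of genes were, *Ctgf* higher with E2 (8.63% of genes were called higher) and *Axl* lower with E2 (7.60% were called lower). *Ctgf* was higher with E2 than with 4OHT in each pair, by 1.28, 1.14 and 1.26 times, with a log2 fold change of 0.30 (SE 0.064, blocked adjusted p 0.0333). That call held in 1 of 9 fits without a single sample, the one without DMSO replicate 1. *Axl* was at 0.74, 0.80 and 0.83 of its 4OHT level, with a log2 fold change of -0.34 (SE 0.037, blocked adjusted p 0.00569), and was called in 9 of 9 such fits. Neither was called once a replicate number was left out. *Ankrd1* was higher with E2 in each pair too, by 1.11, 1.06 and 1.08 times, with a blocked adjusted p of 0.0745 as deposited and of 0.0352 after upper-quartile scaling. In *Ctgf* and *Ankrd1* the order within each replicate number was therefore DMSO, 4OHT and E2 from low to high.

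Across the 9 samples the 3 classic targets varied together. The Pearson correlation of log2(FPKM + 1) was 0.99 between *Ctgf* and *Ankrd1*, 0.97 between *Ctgf* and *Cyr61* and 0.95 between *Cyr61* and *Ankrd1*. After each replicate number was centred on its own mean the values were 0.99, 0.92 and 0.94, and *Ctgf* and *Axl* went from 0.01 to -0.84. Among all tested genes without a 0, those most like *Ctgf* were *Ankrd1* (0.99) and *Senp5* (0.98), and those most like *Ankrd1* were *Actg1*, which encodes cytoplasmic gamma-actin, and *Ctgf* (0.99 each). *Mrgpre* and *Grb10* were most like *Cyr61* (0.99 each), *Prep* and *Poll* most like *Axl* (0.97 each), *Lamtor3* and *Etfa* most like *Wwtr1* (0.99 and 0.98), *Dad1* and *Nudt4* most like *Yap1* (1.00 and 0.96), *Setd5* and *Pds5b* most like *Tead1* (0.96 each), *Lrp5* and *Snx7* most like *Lats2* (0.98 and 0.93), and *Efemp2* and *Ubxn2a* most like *Amotl2* (0.97 each). The number of genes with a correlation above 0.9 differed between members, with 262 for *Axl*, 206 for *Cyr61*, 154 for *Ctgf*, 115 for *Ankrd1*, 75 for *Wwtr1*, 43 for *Tead1*, 24 for *Amotl2*, 9 for *Yap1* and 7 for *Lats2*. The samples share replicate numbers and treatments, and these values are a description.

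The wider pathway was read from lists of core and upstream components, nuclear effectors and YAP and TAZ targets, which include the members. Of their 55 genes 54 had a row of their own, *Taok2* standing only in a row joined with a neighbour, and 46 were tested. *Wtip*, *Fat4*, *Dchs1*, *Vgll1*, *Vgll2*, *Vgll3*, *Igfbp3* and *Foxf2* did not pass the filter on low values, and *Wtip*, *Vgll1* and *Igfbp3* are listed at exactly 0 in all 9 samples, where a failed estimate and a low level cannot be told apart. For E2 against DMSO 1 of the 46 was called without the block and 14 with it, 12 higher and 2 lower, or 30.4% beside the 15.0% of all genes. With the block 10 of 20 tested targets were called, 9 higher and 1 lower, against 2 of 22 core and upstream genes and 2 of 7 nuclear effectors. The called targets included the members *Ctgf*, *Cyr61*, *Ankrd1* and *Axl*. The median log2 fold change of the genes without a 0 was 0.12 over the targets, 0.05 over the core and upstream genes and -0.03 over the effectors, beside -0.003 over all genes. Of the 18 targets without a 0, 10 had a positive and 8 a negative log2 fold change, and among the 12 that are no member 6 were positive and 6 negative.

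Of the targets, *F3*, which encodes tissue factor, the starter of coagulation, was the one gene called without the block. It was at 88.4, 91.4 and 107 FPKM with DMSO and at 176, 193 and 224 with E2, and the groups did not overlap. Its log2 fold change was 1.04, with an adjusted p of 0.0213 without the block and 0.000512 with it. However, without the block no list gene was called in the fit of only the 6 samples compared, or in 6 of 6 fits that left out only 1 DMSO or E2 sample. *Nt5e*, which encodes the ectonucleotidase CD73, was at 96.9, 38.4 and 47.0 FPKM with DMSO and at 127, 73.7 and 79.9 with E2. Its log2 fold change of 0.69 had an adjusted p of 0.587 without the block and 0.00798 with it, and its replicate 1 lay above the others, opposite to *Ctgf*. *Tgfb2*, *Gadd45a*, *Rbms3* and *Dock5* were the other targets called higher that are no member, with log2 fold changes of 0.66, 0.43, 0.31 and 0.24. *Fjx1* was the second lowest target after *Axl*, with a log2 fold change of -0.24 and a blocked adjusted p of 0.0951.

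Among the nuclear effectors *Tead2*, a second TEAD factor, was at 23.9, 28.3 and 28.6 FPKM with DMSO and at 20.2, 23.8 and 25.1 with E2. Its log2 fold change of -0.22 had an adjusted p of 0.533 without the block and 0.0103 with it, whereas that of *Tead1* was 0.03. *Tead3* was near 3 FPKM with a log2 fold change of -0.14 (blocked adjusted p 0.209). In the core list *Taok3*, a kinase upstream of Mst1 and Mst2, and *Ajuba*, a LIM protein that binds and restrains Lats kinases, were called higher with the block, with log2 fold changes of 0.30 and 0.21 and adjusted p of 0.0125 and 0.0155. Among the genes of this list without an exact 0, *Map4k4* and *Nf2* were lowest at -0.06 and -0.05 and were not called. *Frmd6*, a FERM-domain protein, was lower with E2 than with DMSO in all 3 pairs, at 25.7, 35.2 and 31.6 FPKM with DMSO and 23.1, 28.4 and 26.7 with E2, and its one 0 was in a 4OHT sample. Its log2 fold change of -0.23 was not called with the zeros kept as values and had a blocked adjusted p of 0.0107 with them as missing. *Crim1*, *Frmd6* and *Fat1* held 1 exact 0 each, in E2 replicate 3, 4OHT replicate 2 and DMSO replicate 2, and are left out of the medians.

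**Figure D4:**
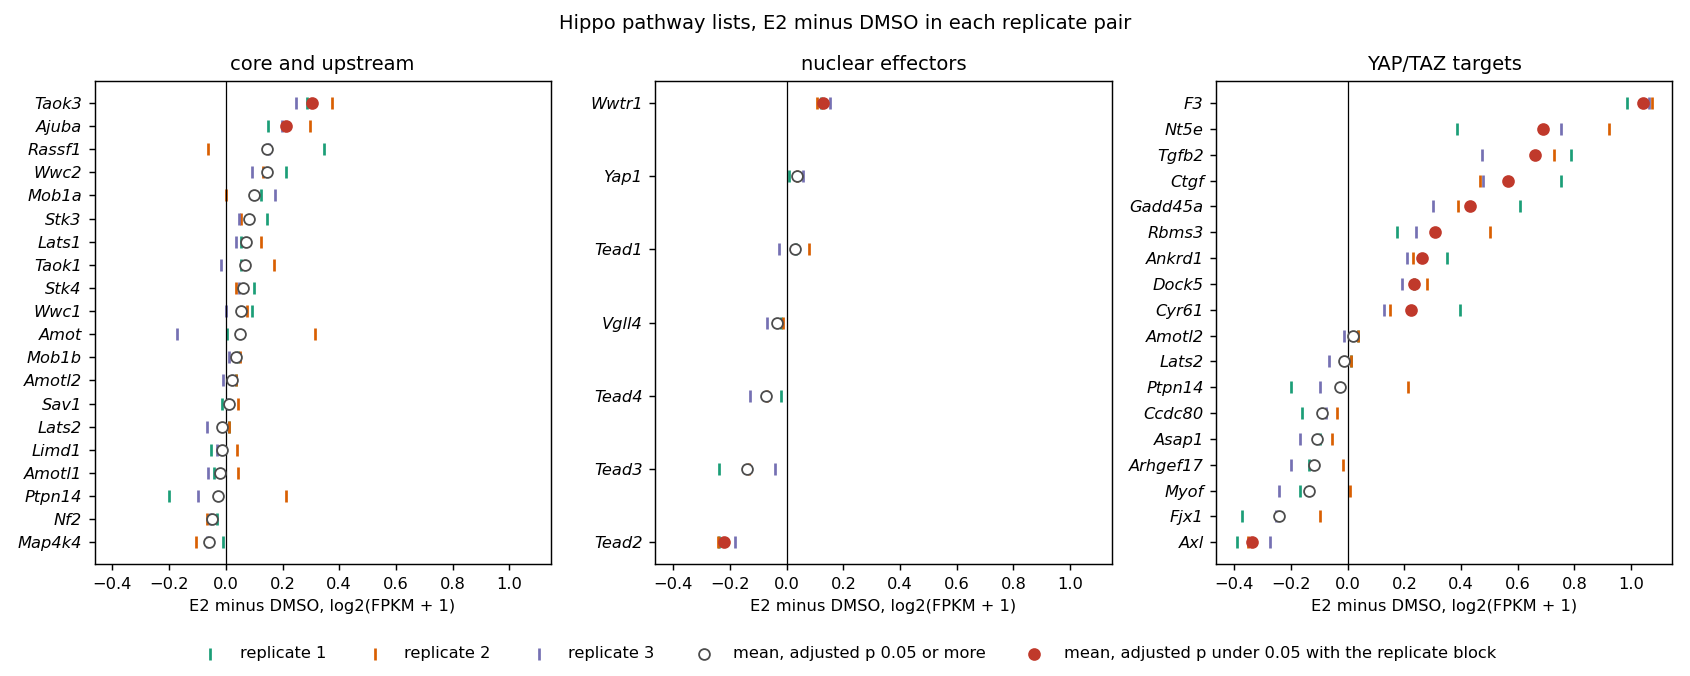
E2 minus DMSO on the log2(FPKM + 1) scale for the tested genes without an exact 0 of each list (20, 7 and 18 genes), with a tick for each replicate pair and a point for the mean, filled where called with the replicate block. The targets run from *Axl* at -0.34 to *F3* at 1.04, and the core genes from *Map4k4* at -0.06 to *Taok3* at 0.30.

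For 4OHT against DMSO none of the 46 genes was called in either fit, with a median of 0.02 over the targets beside 0.03 over all genes. *Fat1* was at 46.3, 0 and 44.5 FPKM with DMSO and at 34.0, 24.3 and 34.2 with 4OHT. In replicates 1 and 3 *Fat1* with 4OHT was thus at 0.73 and 0.77 of DMSO. Both fits kept the 0 as a value, which made the fitted change positive, so that they do not show whether it was lower. With exact zeros taken as missing, no list gene was called for 4OHT against DMSO, without or with the block. The paper's own test lists *Fat1* as lower with 4OHT. For E2 against 4OHT 12 of the 46, or 26.1%, were called with the block, 8 higher and 4 lower, beside 16.2% of all genes, of which 8.63% were higher and 7.60% lower. None was called without it. The targets supplied 7 of the higher and 3 of the lower calls, the latter being *Axl*, *Asap1* and *Fjx1* at log2 fold changes of -0.34, -0.19 and -0.32.

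On GRCm38 the GENCODE annotation places *Ctgf* on chromosome 10 from 24595442 to 24598683 (plus strand), *Cyr61* on chromosome 3 from 145646976 to 145649981 (minus), *Ankrd1* on chromosome 19 from 36111961 to 36120099 (minus), *Axl* on chromosome 7 from 25757273 to 25788705 (minus) and *Wwtr1* on chromosome 3 from 57455649 to 57575910 (minus). *Yap1* spans 7931999 to 8004596 on chromosome 9 (minus) and *Nuak2* 132316126 to 132333488 on chromosome 1 (plus). *Ctgf*, *Wwtr1*, *Yap1*, *Tead1* and *Lats2* overlap other annotated genes that have no row of their own in the tables, and the libraries were directional, but no source used here states the strand setting of the quantification, so that reads of those genes cannot be told apart.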

How the data were processed

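The 9 samples of FVB MOE cells, 3 each with DMSO, E2 and 4OHT, were grouped and numbered by their labels. The authors trimmed the 50 bp directional single-end reads, aligned them to mm10 with TopHat 2.0.8b and estimated known genes of a UCSC annotation with Cufflinks 2.1.1. The sample records name its routine Cuffdiff 2.1.1, and the deposited values are FPKM per gene. Whether a further scaling between libraries entered them, and the strand setting, is not given in the sources used here. No counts were used, and depth is given only as relative depth computed from these values.

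Gene rows with at least 1 FPKM in at least 3 samples were tested, 11339 of 23332. limma 3.58.1 in R 4.3.3 was fitted to log2(FPKM + 1) of all 9 samples with a variance trend and a coefficient per condition, with Benjamini-Hochberg adjustment over all tested rows. A fold change on this scale understates that of low genes. The prior degrees of freedom were 1.91 without and 2.12 with the replicate number as a block. The numbers come from the labels, and no source says that they mark a shared day or batch. Deviations of same-numbered samples from the condition means correlated in all 9 pairs above 0.1 over the 11094 tested genes without an exact 0 (0.523 to 0.828), and in 5 of 9 over all tested genes (0.0527 to 0.293). The samples were treated as paired on the former, and blocked values stand beside the others. The fit was tested on data simulated from genes without an exact 0, with a shift shared by each replicate number. That simulation therefore does not test the handling of zeros or samples that are not paired.

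The members and the gene lists were chosen with earlier results of these data known. The genes named were the 10 members, list genes called without the block, the 2 highest and 2 lowest list genes for E2 against DMSO without an exact 0, the 2 genes most correlated with each member, and the *Pgr* and *Greb1* check. *Tgfb2*, *Gadd45a*, *Rbms3*, *Dock5*, *Asap1*, *Crim1*, *Frmd6* and *Fat1* were named after their values were seen. Promoters came from RefSeq (GRCm38.p6) and positions from GENCODE. Alternatives tried were no filter, a pseudocount of 0.1, upper-quartile scaling, only the 6 samples compared, the block, zeros as missing with and without it, no variance trend, and each sample left out. For genes with missing values the blocked fit gives only approximate standard errors of a comparison, and so approximate p-values. Leaving out a replicate number, leaving out samples with the block and upper-quartile scaling with the block were added after seeing the data.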

Additional observations from a re-analysis of the deposited data

How the results depend on the processing

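The replicate block decided the calls. It moved the genes called from 58 to 1702 for E2 against DMSO and from 18 to 1840 for E2 against 4OHT, the members called from 0 to 5 and from 0 to 2, and the pathway-list genes called from 1 to 14 and from 0 to 12. Every count of members was 0 in the fits without the block. For E2 against DMSO, 32 genes were called with no filter and 8 with only the 6 samples compared, where no list gene was called (0). For 4OHT against DMSO, 3 were called with only the 6 samples and 22 with zeros as missing and the replicate block. For E2 against 4OHT, the count was 10 with a pseudocount of 0.1, 9 with no filter, 7 with only the 6 samples and 37 with zeros as missing, where 1 list gene was called.

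With samples or a replicate number left out, the genes called ranged from 3 to 108 for E2 against DMSO, 0 to 6 for 4OHT against DMSO and 0 to 48 for E2 against 4OHT, and with the replicate block from 203 to 1336, 0 to 6 and 152 to 1509. Members called with the block ranged from 0 to 4 for E2 against DMSO and from 0 to 2 for E2 against 4OHT. List genes called with the block ranged from 2 to 13 and from 1 to 11. Without the block 0 to 1 list genes were called for E2 against DMSO, and each fit that left out only 1 DMSO or E2 sample gave 0. The count of 0 members with the block for E2 against DMSO came without replicate 3 in every group.

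Directions that reversed belonged to members that were not called in the fit concerned. For E2 against DMSO the log2 fold change without the block ranged, with samples left out, from -0.0088 to 0.084 for *Tead1*, -0.047 to 0.011 for *Lats2*, -0.047 to 0.44 for *Cyr61* and -0.022 to 0.079 for *Amotl2*, which was -0.0028 under upper-quartile scaling. For 4OHT against DMSO it ranged from -0.032 to 0.027 for *Lats2*, -0.15 to 0.63 for *Ctgf*, -0.092 to 0.40 for *Cyr61*, -0.013 to 0.29 for *Ankrd1* and -0.10 to 0.12 for *Axl*, and was -0.027 for both *Lats2* and *Axl* under upper-quartile scaling. For E2 against 4OHT it ranged from -0.051 to 0.016 for *Yap1*, -0.014 to 0.084 for *Wwtr1*, -0.045 to 0.0047 for *Lats2*, -0.060 to 0.62 for *Ctgf*, -0.17 to 0.23 for *Cyr61*, -0.024 to 0.23 for *Ankrd1*, -0.064 to 0.0054 for *Amotl2* and -0.13 to 3.92 for *Nuak2*, where the upper value sets E2 against 4OHT samples that are listed at 0 and is no measure of a change, and was -0.22 with zeros as missing. Where a single sample of a replicate number was left out without the block, the groups compared differed in their mix of replicate numbers. The cause of the other changes was not tested.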
